A study of Caenorhabditis elegans with 6 samples.

Results

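The F-box A genes of the nematode Caenorhabditis elegans were examined as a family, defined as the genes whose symbol is fbxa followed by a number. On the Affymetrix array used here, 175 probe sets carried 1 such symbol, and they named 171 genes of the 17118 genes named in all. Where a gene had several probe sets, the one with the highest mean intensity stood for it. The samples were an ung-1 mutant, which lacks the uracil-DNA glycosylase that starts base excision repair of uracil in DNA, and N2, the usual laboratory wild type of this worm. Each group had 3 arrays of total RNA, labelled as biological replicates. The labels gave no allele, stage, age, culture or treatment, and the design text wrote of RNAi mutants where the sample labels wrote of a mutant, so the way in which ung-1 was lost is uncertain. Nothing further said how the cultures were kept apart, and p-values measure the spread between these samples.

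An F-box protein is the part of an SCF ubiquitin ligase that chooses the substrate. Its F-box binds a SKP1-related protein, SKR in this worm, which joins it to the cullin CUL-1 and the RING protein RBX-1, while the rest of the F-box protein holds the target that is to be marked with ubiquitin. Nematodes carry far more F-box genes than mammals do, and the F-box A group is one of the largest, with an FTH (DUF38) domain behind the F-box. FOG-2, which acts with the RNA-binding protein GLD-1 to let hermaphrodites make sperm, is an F-box protein of the same type under another name. A substrate has been named for few F-box A proteins. FBXA-75 and FBXA-158 are known as partners of another cullin, CUL-6, in a ligase with SKR-3, SKR-4, SKR-5 and the RING protein RCS-1 that belongs to the intracellular pathogen response, a set of genes that worms induce on infection by microsporidia or Orsay virus and under proteotoxic stress.

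By the RefSeq gene table of assembly WBcel235, 135 of the 171 genes were protein-coding and 36 were pseudogenes. They lay on chromosome V (74 genes), III (45), II (19), X (14), I (13) and IV (6). The gene table held 222 genes of this name in all, and the genes with no probe set of their own are not analysed here. Of the 171 genes, 94 stood directly beside another family gene. Probe sets of 17 genes had identifiers that mark a possible match to several transcripts, so the signals of closely related copies may be mixed there.

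Signals of the family were often dim. Their mean intensities ran from 3.27 to 3035, with a median of 96.0, where the median over all genes was 174. Of the 171, 93 lay in the dimmest tercile of all genes, 59 in the middle tercile and 19 in the brightest. No detection calls were used, so how far a dim probe set lies above background is unknown. The 6 arrays had medians between 153 and 168. The targeted gene followed its labels: ung-1 gave 54.9, 55.3 and 47.7 in the mutant and 236, 254 and 296 in N2 on replicates 1, 2 and 3. The means were 52.6 ± 4.30 and 262 ± 30.6 (SD, n = 3 each), a log2 fold change of -2.01 (SE 0.15, limma adjusted p = 0.0765), so this gene too missed the adjusted threshold.

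The first comparison asked whether F-box A genes differed between the mutant and N2. No F-box A gene passed the threshold. The smallest adjusted p in the family was 0.999 (limma on log2(intensity + 16), Benjamini-Hochberg over all 22548 probe sets, threshold 0.05), and 0 of the 171 genes and 0% of all genes were past it. At an unadjusted limma p under 0.05, 1 member was higher in the mutant, where the background was 0.578% of all genes, and 0 members were lower, where the background was 1.28%. Log2 fold changes, mutant minus N2, ran from -0.81 to 0.48, and 168 of 171 were smaller than 0.5 in size. The 95% confidence interval of a member had a median half-width of 0.52. For 135 members the whole interval lay within 1 unit of log2(intensity + 16). That unit is 2-fold in intensity + 16, which for dim probe sets is more than 2-fold in intensity itself. For the remaining members the interval reached beyond 1 such unit with 3 arrays a group.

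The family leaned to the N2 side. Its median log2 fold change was -0.092, beside -0.040 over all genes, and 124 members (72.5%) were negative, beside 58.3% of all genes. In the dimmest tercile 72.0% of members and 66.1% of all genes were negative, in the middle tercile 72.9% and 57.5%, and in the brightest 73.7% and 51.3%. With quantile normalization 106 members (62.0%) and 51.8% of all genes were negative, and with median centring 108 (63.2%) and 49.3%, so both shares dropped together. Without N2 replicate 2 the family median was -0.024 and that of all genes -0.0062, with 100 members negative. Protein-coding members and pseudogenes had similar medians of -0.094 and -0.084.

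**Figure D1:**
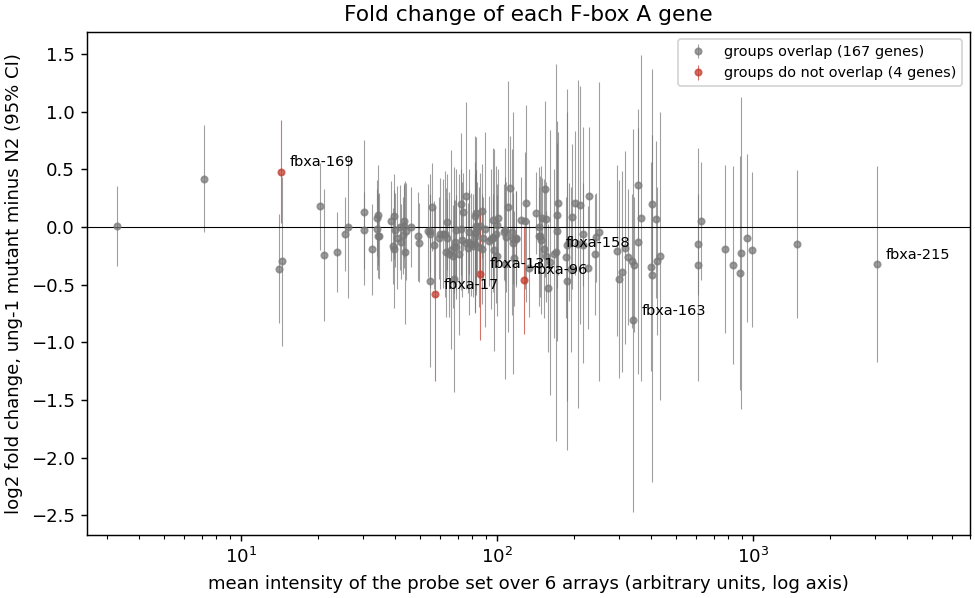
Log2 fold change (mutant minus N2, vertical axis, with limma 95% confidence intervals) of each of the 171 F-box A genes against the mean intensity of its probe set (horizontal log axis, arbitrary units). The 4 genes whose groups do not overlap are red, and most points lie a little below 0 with intervals that include it.

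In 3 members every mutant array lay below every N2 array, where the background was 4.46% of all genes, and in 1 member every mutant array lay above, where it was 1.95%. Both shares of members were below the background. The X-linked gene fbxa-96 gave 112, 91.1 and 108 on mutant replicates 1, 2 and 3 and 153, 184 and 114 on those of N2. Mutant replicate 1 and N2 replicate 3 nearly met. The log2 fold change was -0.46 (SE 0.20, limma adjusted p = 0.999).

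The pseudogene fbxa-17 gave 44.6, 36.4 and 39.0 in the mutant and 52.9, 124 and 44.7 in N2. The groups touched, and N2 replicate 2 alone stood clearly higher (log2 fold change -0.58, SE 0.32, limma adjusted p = 0.999). Likewise fbxa-131 gave 74.5, 65.3 and 70 in the mutant and 82.7, 148 and 74.9 in N2, again with 1 high array, N2 replicate 2 (-0.41, SE 0.24). In an exact two-sided permutation test each of them reached p = 0.1, and no 3 against 3 comparison can go lower.

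The member with the smallest p, fbxa-169 on chromosome II, was dim. It gave 16.4, 18.6 and 22.4 in the mutant and 8.69, 4.63 and 15.1 in N2, a log2 fold change of 0.48 (SE 0.19, limma adjusted p = 0.999). All 3 N2 values had been stored as spreadsheet dates and were read back, so the comparison rests on restored cells. With the stored numbers 25416, 23102 and 40344 taken as intensities, the gene would be called lower in the mutant by 9.68 log2 units (limma adjusted p = 0.000123), the only F-box A call under the settings run. Date numbers touched 26 cells of 8 members, all dim: fbxa-36, fbxa-56, fbxa-68, fbxa-75, fbxa-118, fbxa-133, fbxa-135 and fbxa-169. In fbxa-118 all 6 values were dates, and they read back as 2.16 to 5.43.

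The second question was how the family varied from array to array. Over the arrays of both genotypes together, F-box A values varied somewhat more than those of all genes. The highest and the lowest of the 6 arrays of a member differed 1.89-fold in the median, beside 1.71-fold over all genes. Of the members, 71 varied more than 2-fold, a count that was not set against all genes. Relative to each gene's mean, the family median stood at -0.054, -0.093 and -0.019 on mutant replicates 1, 2 and 3. It stood at -0.062, 0.19 and -0.00037 on N2 replicates 1, 2 and 3. N2 replicate 2 was thus the high array, and the family medians of the other 5 lay close together.

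N2 replicate 2 was the highest of the 6 arrays in 72 members (42.1%), where the background was 33.2% of all genes. After centring each array on its median the counts were 55 members (32.2%) and 25% of all genes. This array was somewhat high for genes at large, with an all-gene median of 0.085. In the dimmest tercile of intensity, which held most members, the family stood at 0.15 and all genes at 0.10, and this array was the highest in 45.2% of members and 40.4% of all genes. In the middle tercile the medians were 0.24 and 0.10, and in the brightest tercile 0.28 and 0.019. The array was at least 1 log2 unit above the median of the other 5 in 12 members (7.02%), where the background was 3.94%, and at least 1 below it in 0 members, where the background was 1.96%. The F-box B genes shared the lean, with N2 replicate 2 highest in 57 of 95, so it was not a mark of the F-box A group alone.

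The member farthest up on N2 replicate 2 was fbxa-163, on chromosome II, with 870 there and 91.5 to 443 on the other arrays. The chromosome III gene fbxa-6 gave 129, 347 and 99.0 in the mutant and 162, 412 and 92.6 in N2, so that replicate 2 was high in both groups. Of the brighter members, fbxa-107 on chromosome V gave 1309 on N2 replicate 2 and lay between 622 and 816 on the other 5 arrays. The bright gene fbxa-156, on the same chromosome, gave 1102, 1310 and 1780 in the mutant and 1170, 2087 and 1439 in N2, with N2 replicate 2 highest and the groups overlapping (log2 fold change -0.15, SE 0.27).

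Few members stood out on the remaining N2 arrays. On N2 replicate 1, fbxa-24 on chromosome II was the one member at least 1 log2 unit above the other arrays, with 867 there against 212, 601 and 335 in the mutant and 344 and 245 on N2 replicates 2 and 3. Its probe set can match several transcripts. On N2 replicate 3, the members this far up were fbxa-59 and fbxa-182. Mutant replicate 1 was at least 1 log2 unit below the other arrays in 9 members (5.26%, against 1.99% of all genes), 5 of which were also among the members up on mutant replicate 3 described next. In fbxa-146, a pseudogene on chromosome II, that array was lowest and mutant replicate 2 highest: the values were 46.3, 211 and 118 in the mutant and 127, 73.2 and 87.2 in N2.

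**Figure D2:**
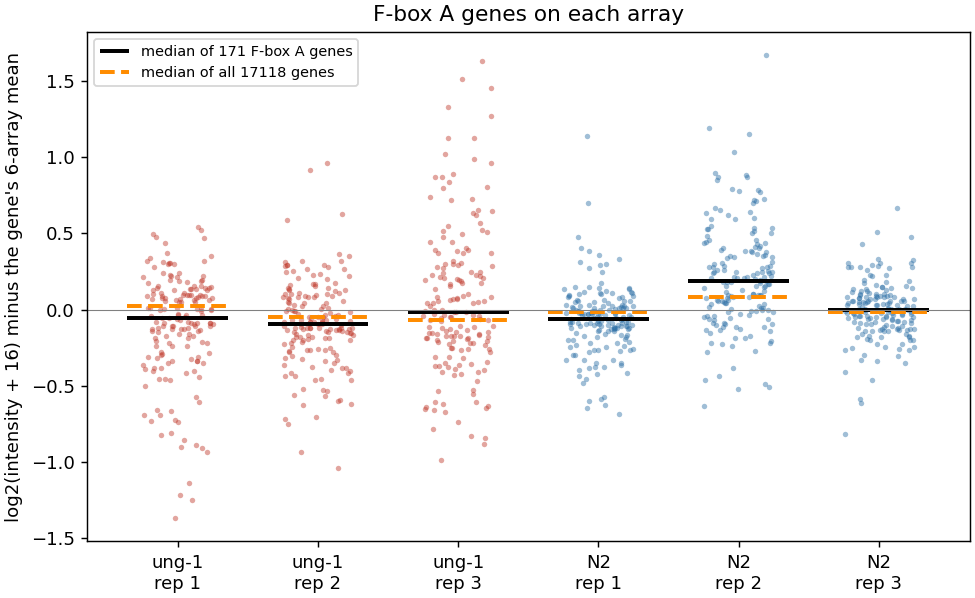
Each point is 1 of the 171 F-box A genes on 1 array, as log2(intensity + 16) minus the gene's mean over the 6 arrays (vertical axis), with mutant arrays in red and N2 arrays in blue. Black solid lines are family medians and orange dashed lines medians of all 17118 genes; N2 replicate 2 has the highest family median at 0.19, and mutant replicate 3 has a long upper tail.

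Mutant replicate 3 stood apart in another way, in its upper tail and not in its family median. It was the highest array in 46 members (26.9%, against 17.6% of all genes) and the lowest in 54 (31.6%, against 28.9%). In 15 members it was at least 1 log2 unit above the median of the other 5 arrays (8.77%, background 4.03%), and in 2 members at least 1 below (1.17%, background 1.72%). Of these 15 members, 1 was among the 93 in the dimmest tercile (1.08%, against 0.894% of all genes), 11 among the 59 in the middle (18.6%, against 4.78%) and 3 among the 19 in the brightest (15.8%, against 6.41%). From here on, the genes named for their array patterns were picked with those values known. The exceptions are fbxa-60, fbxa-158, fbxa-75, fbxa-215, fbxa-101 and fbxa-210. Genes named in the preceding paragraphs on the N2 arrays and mutant replicate 1 were picked in the same way, apart from fbxa-156.

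The highest excursions were those of fbxa-98, fbxa-59 and fbxa-158. The chromosome IV gene fbxa-98 gave 197, 181 and 877 in the mutant and 198, 353 and 386 in N2. The chromosome III gene fbxa-59 gave 126, 144 and 1005 in the mutant and 230, 412 and 506 in N2. In both genes mutant replicates 1 and 2 lay below every N2 array, in fbxa-98 by a narrow margin, and mutant replicate 3 lay above every N2 array.

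The same order appeared in fbxa-60, with 464, 400 and 1987 in the mutant and 748, 850 and 944 in N2. Its probe set can match several transcripts, as can that of fbxa-57. In fbxa-163 mutant replicate 3, at 443, was exceeded by N2 replicate 2, at 870, while the other 4 arrays lay between 91.5 and 288. Of the 15 members, 12 were highest on mutant replicate 3, and 5 were also at least 1 log2 unit up on N2 replicate 2. Mutant replicate 1 or 2 was the lowest array in 10. Members chosen as high on mutant replicate 3 cannot be lowest there, so this count alone marks no trait of the 15. Over all 171 members the lowest array was mutant replicate 1 in 38, mutant replicate 2 in 39 and mutant replicate 3 in 54. The chromosome V gene fbxa-105 (191, 201 and 718 in the mutant, 296, 312 and 405 in N2) and the X-linked fbxa-53 (55.6, 62.6 and 244, with 93.9 to 118.7 in N2) had the same shape, with replicates 1 and 2 of the mutant below N2. In fbxa-143 on chromosome V mutant replicate 3 alone stood out, at 284, and the other 5 arrays lay between 112 and 155. Group means hid this pattern, since 10 of the 15 had a negative fold change and none was called. The excursions ran from 1.01 to 2.06 log2 units, with fbxa-12 the lowest of the 15 and fbxa-88, at 0.98, just outside.

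**Figure D3:**
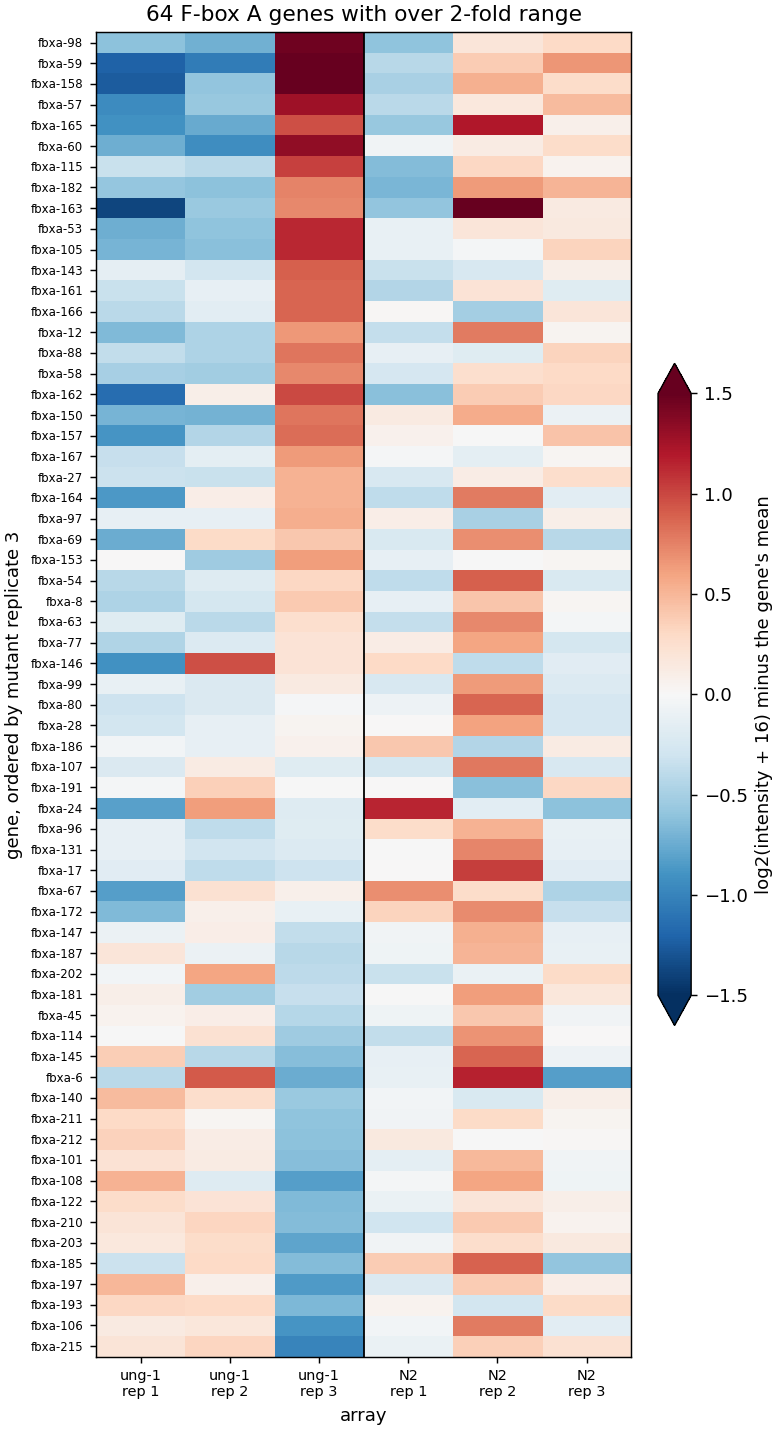
Heat map of the 64 F-box A genes without date cells whose highest and lowest arrays differed over 2-fold, with the 6 arrays as columns and genes ordered by mutant replicate 3. Colour is log2(intensity + 16) minus the gene's mean, saturated at 1.5; the top block is high on mutant replicate 3, the bottom block is low there, and N2 replicate 2 is the highest array in 30 of the 64.

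Leaving out mutant replicate 3 therefore moved single members. Without it, 10 members were lower in the mutant at an unadjusted limma p under 0.05 (5.85%, against 1.81% of all genes), and 1 was higher (0.585%, against 1.97%), while 0 members and 0% of all genes passed the adjusted threshold. The 10 were fbxa-60, fbxa-53, fbxa-59, fbxa-150, fbxa-105, fbxa-157, fbxa-128, fbxa-158, fbxa-57 and fbxa-58. On these arrays fbxa-60 had a mean of 432 in the mutant and 847 in N2, a log2 fold change of -0.94 (SE 0.18, limma adjusted p = 0.984). The one higher was fbxa-206, at 0.54 (SE 0.19). Removing an array that was high in these genes lowers their mutant mean by construction, and the family median was -0.099 without it.

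The F-box partners of CUL-6 were highest on the same array as most of their complex, fbxa-158 by far more than fbxa-75. The member fbxa-158 gave 48.2, 85.2 and 421 on mutant replicates 1, 2 and 3 and 92.9, 205 and 169 on those of N2. Mutant replicate 3 was 2.0 log2 units above the median of the other arrays, and the fold change between genotypes was -0.22 (SE 0.69, limma adjusted p = 0.999). The dim gene fbxa-75 gave 20.2, 24.5 and 54.4 in the mutant and 28.0, 29.9 and 23.1 in N2. Mutant replicate 3 again stood above the remaining 5 arrays, but by less than 1 log2 unit over their median. One of these 6 values was a restored date.

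Of the 5 genes of the CUL-6 ligase without its F-box proteins, 4 were highest on mutant replicate 3. The RING gene rcs-1 gave 365, 438 and 2265 in the mutant and 457, 606 and 874 in N2. The cullin gene cul-6 gave 322, 368 and 1047 in the mutant, against 380, 328 and 360 in N2. Both were high on 1 array of the 6, with no call between genotypes (log2 fold changes 0.20, SE 0.67, and 0.48, SE 0.42, limma adjusted p = 0.999).

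The SKP1-related genes skr-3 and skr-4 had 1825 and 970 on mutant replicate 3, against 422 to 801 and 233 to 483 on the other arrays. The gene skr-5 was level on mutant replicate 3 (840) and N2 replicate 2 (842), and lay between 293 and 510 elsewhere. As a list, the complex stood at 1.28 on mutant replicate 3 relative to each gene's mean, and at -0.62 and -0.59 on mutant replicates 1 and 2. Below that top array the orders parted: fbxa-158 was next highest on N2 replicate 2, rcs-1, skr-3 and skr-4 on N2 replicate 3, and cul-6 on N2 replicate 1.

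**Figure D4:**
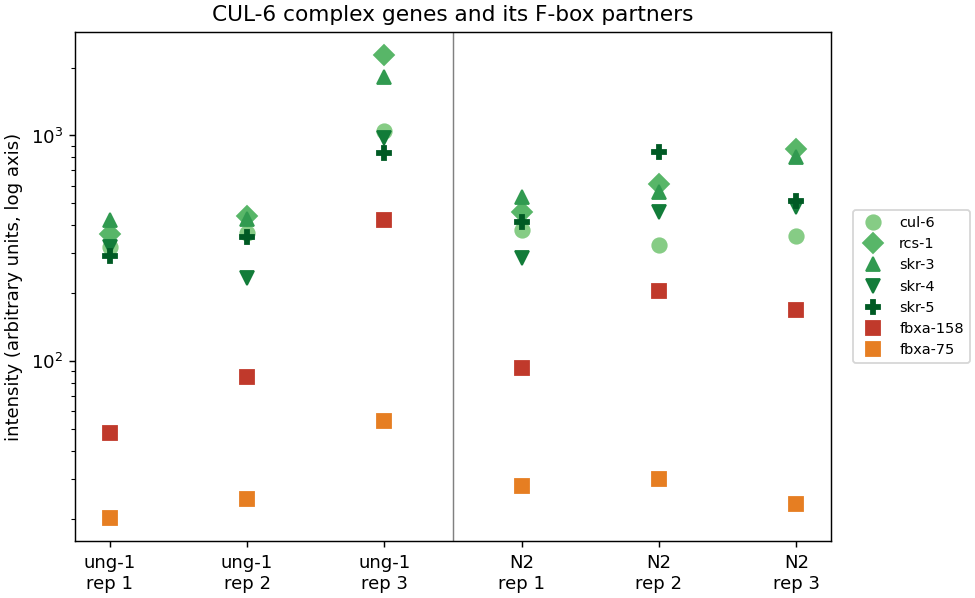
Intensity (vertical log axis, arbitrary units) of fbxa-158 and fbxa-75 and of the CUL-6 complex genes cul-6, rcs-1, skr-3, skr-4 and skr-5 on each array (horizontal axis), 1 symbol per gene. Mutant replicate 3 is the highest array for all of them except skr-5, which reads 840 there and 842 on N2 replicate 2.

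The canonical SCF core genes were not high on that array in the same way. The gene cul-1 gave 1622, 1087 and 1140 in the mutant and 1261, 1021 and 1582 in N2, and rbx-1 gave 959, 1152 and 719 and then 719, 1337 and 775. The groups overlapped for both, with fold changes of -0.0064 (SE 0.23) and 0.029 (SE 0.29). The SKP1-related genes skr-1 and skr-2, which serve in this core, had 0.11 (SE 0.19) and 0.069 (SE 0.39). On mutant replicate 3 skr-1 read 969, within its range of 695 to 1019 on the other arrays, and skr-2 read 601, the lowest of its 6 arrays, against 821 to 1545. Of 36 ligase genes examined (the skr genes, the cullins, rbx-1, rcs-1 and cullin regulators), 0 passed the adjusted limma threshold and 0 had an unadjusted p under 0.05, with 18 negative. On mutant replicate 3, 5 of the 36 were at least 1 log2 unit up (13.9%, background 4.03%). They were not all of the CUL-6 complex: skr-21, outside it, gave 257, 202 and 1164 in the mutant and 326, 626 and 277 in N2.

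Other members were low on mutant replicate 3. Members at least 1 log2 unit down there were 1.17%, below the 1.72% of all genes. The gene fbxa-215 gave 3313, 3630 and 1450 in the mutant and 2702, 3708 and 3406 in N2. That array was the lowest by a wide margin, and the fold change of -0.32 (SE 0.36) was 0.096 without it. The gene fbxa-106 gave 319, 325 and 149 in the mutant and 281, 505 and 257 in N2. Values of fbxa-101 were 1115, 1047 and 609 in the mutant and 867, 1344 and 926 in N2, and those of fbxa-210 were 1047, 1145 and 575 and then 739, 1204 and 948. In each of these 4 genes mutant replicate 3 was the lowest array.

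The same array was low for genes of the adult germline and of yolk. Of 10 oocyte and germline markers 9 were lowest there, of 5 yolk genes 5, and of 23 major sperm protein genes 18, with the remaining 5 lowest on N2 replicate 1. The summed yolk intensity was 28294 on mutant replicate 3 and between 62338 and 79280 on the other arrays. The summed oocyte and germline intensity was 32999 to 52084 in the mutant and 40846 to 57463 in N2. The summed sperm intensity was 25002 on mutant replicate 3, 26734 on N2 replicate 1 and 54126 to 75396 elsewhere. None of these markers was at 0, the lowest value being 110. Somatic markers went the other way on this array in the median, at 0.27 for 4 intestinal, 0.29 for 3 muscle and 0.29 for 4 neuronal genes relative to each gene's mean. The intestinal genes elt-2 and act-5 read 1476 and 4721 there, against 441 to 872 and 2074 to 2581 on the other arrays, while ges-1 was lowest there and ifb-2 was not high. The muscle genes were higher still on mutant replicate 2, at 0.98, and lowest on mutant replicate 1, at -1.14. The sperm-promoting F-box gene fog-2 was low as well, with 1035, 798 and 378 in the mutant and 671, 1067 and 786 in N2. The part of these differences in the F-box A values was not tested, and in bulk RNA fewer cells of a type and less RNA per cell cannot be told apart.

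The excursions on mutant replicate 3 were uneven over the genome. Relative to each gene's mean, members on chromosome II stood at 0.37 on that array, and members on III at 0.20, while members on I stood at -0.42. The medians of all genes on these chromosomes were -0.077, -0.086 and -0.11 there. On mutant replicate 1 the order was turned, with -0.35 for II, -0.19 for III and 0.19 for I. On chromosome I, the pseudogene fbxa-203 gave 78.0, 86.5 and 33.0 in the mutant and 65.8, 85.4 and 77.3 in N2, and fbxa-140 gave 117, 99.7 and 49.3 and then 77.7, 66.0 and 85.8. Both were lowest on mutant replicate 3, and in neither did the groups separate. Chromosome II held 6 of the 15 members that were at least 1 log2 unit up (31.6% of its members, against 3.65% of all its genes). III held 4 (8.89% against 3.11%) and V held 3 (4.05% against 4.54%). IV and X held 1 each (16.7% against 4.16%, and 7.14% against 5.70%). On V and X these shares were near those of all genes. On N2 replicate 2 the members of all 6 chromosomes stood above their mean, at 0.11 to 0.26. All genes of these chromosomes did so too, at 0.056 to 0.11.

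**Figure D5:**
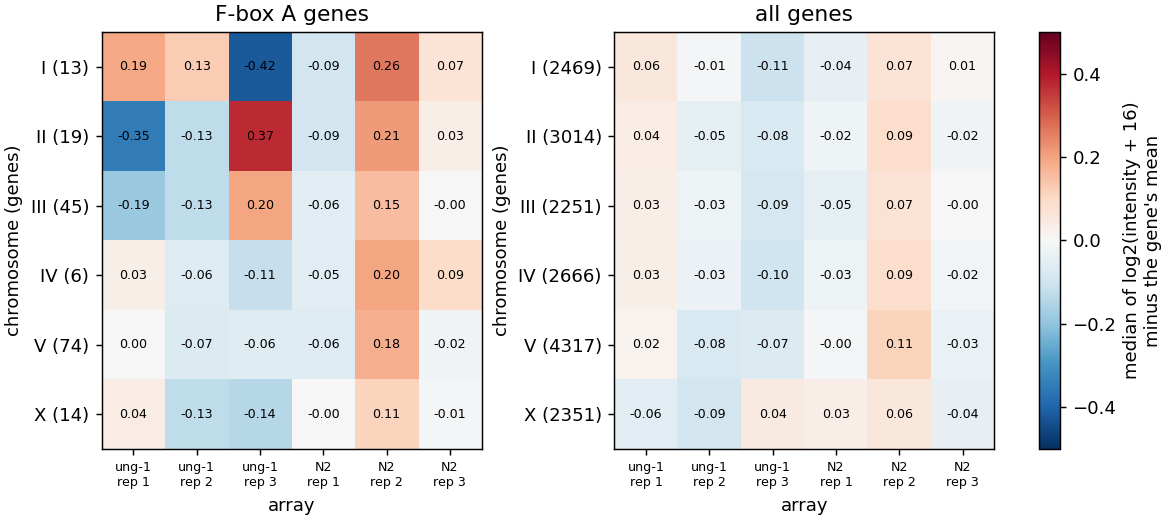
Median of log2(intensity + 16) minus the gene's mean for F-box A genes (left) and all genes (right), by chromosome (rows, with the number of genes) and array (columns). F-box A medians on mutant replicate 3 span -0.42 on chromosome I to 0.37 on II, where those of all genes stay between -0.11 and 0.044.

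Neighbouring genes did not always share a pattern. A run of 6 adjacent family genes on chromosome II was measured in full (fbxa-164, fbxa-165, fbxa-166, fbxa-158, fbxa-159 and fbxa-160). Within it, mutant replicate 3 lay 2.0 log2 units above the other arrays for fbxa-158, 1.54 for fbxa-165, 1.03 for fbxa-166 and 0.68 for fbxa-164. For the run's other two members, fbxa-160 and the pseudogene fbxa-159, it lay at 0.020 and -0.11. A second run on that chromosome, fbxa-161, fbxa-162 and fbxa-163, lay at 1.05, 0.90 and 1.28. The run of fbxa-185, fbxa-186, fbxa-187, fbxa-188 and fbxa-189 on chromosome V held 0 of the 15 members. Only 4.05% of members on V were among the 15, so 0 in a short run is no contrast. Fold changes between genotypes in the first run lay between -0.47 and 0.20.

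In the 4 genes with more than 1 probe set, the probe sets did not always tell the same story. The brighter probe set of fbxa-150 gave 502, 498 and 1453 in the mutant and 905, 1216 and 775 in N2. The dimmer gave 37.6, 34.1 and 39.2 in the mutant and 29.6, 27.0 and 28.1 in N2. There every mutant array lay above every N2 array (limma adjusted p = 0.999). That separation is not in the counts above, where the brighter probe set stood for the gene. The excursion on mutant replicate 3 appeared on the brighter probe set alone. The fold changes had opposite signs, -0.40 (SE 0.43) for the brighter and 0.26 (SE 0.13) for the dimmer. In fbxa-136, fbxa-214 and fbxa-93 the probe sets agreed in sign and differed by 0.12, 0.20 and 0.068.

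A further 16 probe sets named an F-box A gene together with another gene and were kept out of the family. Their median fold change was -0.13, with 12 of 16 negative and 0 with groups apart, and N2 replicate 2 was the highest array in 8. The probe set shared by fbxa-151 and fbxa-78 gave 81.6, 78.6 and 218 in the mutant and 67.4 and 523 on N2 replicates 1 and 2, high on mutant replicate 3 and higher on N2 replicate 2.

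Other F-box families gave no call either. Of 95 F-box B genes 72 were negative, with a median of -0.11, and 3 were lower at an unadjusted limma p under 0.05, with fbxb-19 at -0.69 (SE 0.22) the smallest p. The background for those 3 was 1.28% of all genes. In 10 of the 95 F-box B genes the mutant lay wholly below N2, where the background was 4.46% of all genes and 411 of the 5706 genes in the dimmest tercile, and in 2 it lay wholly above, where it was 1.95%. Most F-box B genes were dim, with a median mean intensity of 73.4. Of 44 F-box C genes 25 were negative, with a median of -0.047. On mutant replicate 3, 2 F-box B and 3 F-box C genes were at least 1 log2 unit up (2.11% and 6.82%, beside 8.77% of F-box A genes), a difference that was not tested. These shares were not matched for brightness. The highest mean intensity of an F-box B gene was 226, beside 3035 in F-box A. In the dimmest tercile alone, 1.08% of F-box A genes and 0.894% of all genes were this far up. Among 9 conserved F-box genes 4 were negative and 0 were up on that array, the nearest to a call being sel-10, an SCF component of Notch signalling, at -0.21 (SE 0.16).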

How the data were processed

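The deposited table held 1 linear intensity per probe set and array for 22625 probe sets. Per the labels' protocols, RNA was extracted with Trizol and biotin-labelled. The sources used here do not say how probes were summarised, corrected for background or scaled. Of 135750 cells, 1361 held spreadsheet date numbers (631 day.month, 730 month.year), which were read back as values from 1.17 to 31.12. A day.month cell was read with the day before the decimal point and the month as a pair of digits after it. This was settled on the unaltered values between 13 and 31: those whose decimals could be such a month numbered 8 and were all 29.02 or 30.02, which are no dates, while each decimal that is a multiple of 0.1, from 0.2 to 0.9, kept 39 to 53 cells. Reading the month as 1 digit was added as an alternative with the data in view.

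Names came from the platform annotation, checked by gene identifier against RefSeq (WBcel235), which changed 0 symbols. Of 22548 probe sets tested (77 controls left out), 20766 had 1 symbol, 887 several and 895 none. Log2(intensity + 16) was fitted with limma 3.58.1 in R 4.3.3 (lmFit, eBayes, two-sided), adjusted by Benjamini-Hochberg over all probe sets. The offset understates changes of dim probe sets. Counts and medians of lists use 1 probe set per gene, and no set test was run. Figures used Python 3.11.15 and matplotlib 3.10.9. The fit was tested on simulated data.

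The members and lists were chosen with earlier results of these data known. The naming rule took members with groups apart (up to 8 per direction), the 6 with the highest mean intensity (fbxa-215, fbxa-156, fbxa-101, fbxa-210, fbxa-60 and fbxa-150), fbxa-75, fbxa-158 and up to 4 with several probe sets. Alternatives covered the date cells, offsets of 1 and 50, quantile normalization, median centring, dim and ambiguous probe sets, probe set averaging, the variance model, array weights, a replicate block and leaving out each array.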

Additional observations from a re-analysis of the deposited data

How the results depend on the processing

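The family median kept its sign under all 19 alternatives, from -0.14 to -0.024. It moved by less than the spread of the family median between replicates, 0.095. That spread is larger than the size of the median itself, -0.092. A median with no lean at all would have met this yardstick too, so it says nothing on how stable the lean is. Leaving out each array gave -0.14 to -0.024. Negative members (124) were 105 with array weights (all genes 54.7%) and 100 to 126 with an array left out. F-box A genes past the adjusted threshold were 0 except with values as deposited (1, fbxa-169). At unadjusted p, members higher in the mutant (1) were 2 with an offset of 1, quantile normalization, median centring, an intensity trend or array weights. They were 0 with values as deposited, date cells missing, an offset of 50 or without the dimmest tercile, and 0 to 1 with an array left out. Members lower (0) were 1 with values as deposited, 2 with the trend, 3 with array weights and 0 to 10 with an array left out, with 4 without mutant replicate 1 (2.34%, all genes 1.63%), 10 without mutant replicate 3 (5.85%, all genes 1.81%) and 5 without N2 replicate 3 (2.92%, all genes 3.05%). All genes lower were 1.79% with the trend and 3.52% with array weights, and all genes higher were 0.497% and 3.13%. Members with the mutant wholly higher (1) were 0 with date cells missing or without the dimmest tercile, 3 with quantile normalization or centring, and 2 to 9 with an array left out. Of all genes, 2.87% and 2.92% were wholly higher under those scalings, and 3.54% to 8.70% with an array left out, where smaller groups separate more often by construction. Members wholly lower (3) were 0 after centring, 1 without the dimmest tercile and 4 to 27 with an array left out. Of all genes, 10.5% were wholly lower without mutant replicate 3 (members 15.8%) and 16.1% without mutant replicate 1 (members 14.0%). Without the dimmest tercile, 79 members remained, with 57 negative and 30 highest on N2 replicate 2. The 15 members up on mutant replicate 3 were 11 to 20 over all settings that keep that array.

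Among named genes, signs turned as follows. With values as deposited, fbxa-169 was -9.68 and fbxa-75 -3.15. With array weights, fbxa-101 was 0.087, fbxa-156 0.035, fbxa-210 0.29 and fbxa-215 0.063. Without mutant replicate 3, fbxa-101 was 0.074, fbxa-210 0.21, fbxa-215 0.096 and fbxa-75 -0.17. Without mutant replicate 1, fbxa-156 was 0.0061, fbxa-158 0.35 and fbxa-60 0.086. Without mutant replicate 2, fbxa-158 was 0.025, fbxa-60 0.19 and fbxa-93 -0.0065. Without N2 replicate 2, fbxa-136 was 0.065, fbxa-156 0.077 and fbxa-210 0.077. Over all left-out arrays, the values ran from -0.35 to 0.074 (fbxa-101), -0.35 to 0.065 (fbxa-136), -0.34 to 0.077 (fbxa-156), -1.03 to 0.35 (fbxa-158), -0.28 to 0.21 (fbxa-210), -0.56 to 0.096 (fbxa-215), -0.94 to 0.19 (fbxa-60), -0.17 to 0.32 (fbxa-75) and -0.0065 to 0.25 (fbxa-93). The cause was not tested beyond the construction of each setting. With date cells missing fbxa-169 has no value. Same-numbered arrays deviated with correlations of -0.19, 0.090 and 0.10. Deviations within a group of 3 arrays constrain one another, so this check cannot tell whether the numbers pair the samples. The replicate block left 1 member higher, 0 lower and the median at -0.092. The number of arrays and dim signals limit every value.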

Other observations

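Genes of the pals family, many of which belong to the intracellular pathogen response together with cul-6, were looked at after the values of fbxa-158 had been seen. Of 23 pals genes 12 were highest on mutant replicate 3, and 8 were at least 1 log2 unit above the median of the other arrays there (34.8%, where the background was 4.03% of all genes). A further 6 were highest on N2 replicate 2, among them pals-6, pals-33 and pals-38. On that array 5 of the 23 were at least 1 log2 unit up (21.7%, where the background was 3.94%). The gene pals-26 gave 217, 380 and 2588 in the mutant and 278, 1462 and 977 in N2. The gene pals-5, widely used as a reporter of this response, gave 18.7, 15.4 and 62.8 in the mutant and 15.2, 43.8 and 15.4 in N2. Both were highest on mutant replicate 3 and next on N2 replicate 2, the arrays on which fbxa-158 was also highest and next. Neither passed the threshold between the genotypes (log2 fold changes -0.28, SE 0.97, and 0.18, SE 0.42, limma adjusted p = 0.999). The labels name no infection or stress.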
